A study of Mus musculus with 6 samples.

Results

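The 44 genes described here encode fibrillar collagens (5 genes), basement membrane and other collagens with laminins and nidogen (11), proteoglycans and matrix glycoproteins (13), enzymes, inhibitors and growth factors that remodel the matrix (12) and genes by which fibroblasts are recognized (3). They were found by symbol among the 17145 genes of the count table, and all 44 had at least 10 unique molecular identifiers (UMIs) over the 6 libraries, from 10 for *Tcf21* to 1444 for *Sparc*.
The libraries came from fresh-frozen sections of FS6KD mouse hearts, which carry a gene-trap allele of *Ndufs6*, a complex I subunit of the respiratory chain, on both chromosomes in a mixed C57BL/6J and 129/Ola background. The knockdown is heart-dominant and shared by both groups, and no wild-type heart was among these libraries. The labels give the mice as female, the tissue as heart and the cells as cardiomyocytes, and the ages of these mice are not given in the sources used here. Areas of high or low anti-Atf3 staining inside Atf3-positive clusters were irradiated with ultraviolet light, which frees caged primers so that only cDNA from the lit area is amplified, and 3 Atf3 high and 3 Atf3 low libraries were made by the CEL-seq2 protocol. The libraries of a group are described as biological replicates, and whether a high and a low library of the same number came from the same heart is not given in the sources used here. A lit area is part of a tissue section, so RNA of every cell in it can enter the library.

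The libraries held from 81117 to 210588 UMIs, and between 6936 and 11971 genes had a UMI in each. Levels are given as CPM, counts brought to a common library size scaled by edgeR's TMM method, and 1 UMI was worth 4.66 to 13.6 CPM. A gene with 0 UMIs could therefore still have had 14.0 CPM where the depth was greatest and 40.9 CPM where it was least, which is what 3 UMIs would give there and covers counting error only. Atf3 high replicate 2 stood apart: it held 16 UMIs of the Y-linked *Ddx3y* and *Eif2s3y* and none of *Xist*, against at most 1 Y-linked UMI in each of the other libraries, so it goes against the female label. Atf3 low replicate 2 held 0 Y-linked UMIs and 13 of *Xist*, so these reads go against a shared heart for number 2. Counts of genes past a threshold are also given without this library. *Atf3* RNA itself had 50, 7 and 25 UMIs in Atf3 high against 35, 0 and 8 in Atf3 low, so the groups, which were set by protein, overlapped in RNA. *Ndufs6* had at most 3 UMIs in any library.

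The extracellular matrix of the heart is a mesh of triple-helical collagen fibers, type I and type III above all, that is secreted mainly by fibroblasts. Each muscle cell and capillary is wrapped in a basement membrane, a thinner sheet of type IV collagen and laminin that nidogen links together. Procollagen is folded by chaperones in the endoplasmic reticulum, trimmed outside the cell and cross-linked by lysyl oxidases, while metalloproteinases and their inhibitors set its turnover, and transforming growth factor β, stored in the matrix by its binding proteins, is a main signal for matrix production. Expansion of this matrix is the fibrosis of failing hearts.

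Most of the 44 genes had a higher fitted level in Atf3 high, but none passed edgeR's test after adjustment, with the group as its only term. The log2 fold change (Atf3 high over Atf3 low, edgeR's quasi-likelihood test) was positive for 36 genes and negative for 8, with a median of 0.68 beside 0.11 over all 7665 genes tested, of which 55.2% were positive. After Benjamini-Hochberg adjustment over all genes tested, 0 of the 44 were called, with a smallest adjusted p of 0.545, while 7 of all genes (0.0913%) were. At an unadjusted p under 0.05, 6 of the 44 genes (13.6%) were higher in Atf3 high, *Pcolce*, *Postn*, *Col1a2*, *Nid1*, *Lamc1* and *Col3a1*, and 0 were lower, against 3.55% higher and 2.24% lower among all genes tested. DESeq2 also called 0 after adjustment and gave 4 of the 44 at this threshold, all higher. Among all 7665 genes it called 12, and 127 were higher at this threshold. Every Atf3 high library lay above every Atf3 low library for 3 genes (6.82%), *Nid1*, *Timp2* and *Pcolce*, a share close to the 7.07% of all genes, and 0 genes lay the other way round, against 3.89%. Scaling by library size alone moved the median of all genes to 0.31 and that of the 44 genes to 0.91, with 39 positive. Under that scaling 79.8% of all genes at an unadjusted p under 0.05 were higher in Atf3 high, where TMM gave 61.3%.
In libraries from tissue areas, a different number of cells of a type and a different amount of RNA per cell cannot be told apart. Summed markers of cardiomyocytes, scaled by TMM, were 23709 to 45401 CPM in Atf3 high and 45553 to 61042 CPM in Atf3 low. The closest libraries were Atf3 high replicate 3 and Atf3 low replicate 1. They held 9747 of 202397 and 6760 of 166867 UMIs of the tested genes, so without TMM their order is reversed. The part of this difference in the matrix gene values was not tested.

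**Figure D1:**
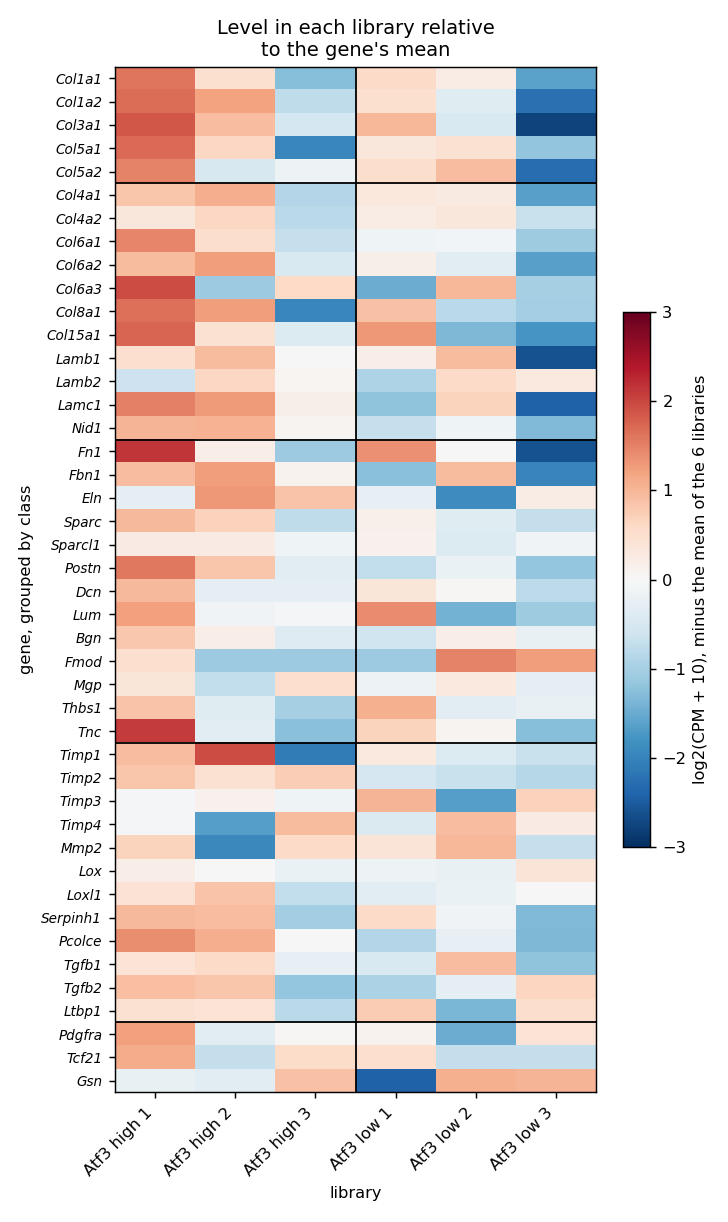
Level of each of the 44 genes in each library, as log2(CPM + 10) minus the gene's mean over the 6 libraries, grouped by class from fibrillar collagens at the top to fibroblast identity genes at the bottom; red is above and blue below the mean. Atf3 high replicate 1 holds the highest level of 22 genes and Atf3 low replicate 3 the lowest level of 21, ties included, while *Lamb2* and *Gsn* have their lowest level in Atf3 low replicate 1.

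The fibrillar collagens showed the widest spread between libraries. All 5 had a positive log2 fold change, with a median of 0.71, and 2 of them had an unadjusted p under 0.05. *Col1a2*, the α2 chain of type I collagen, lies on the plus strand of chromosome 6 (GRCm38, 4504814 to 4541544) and had 229, 69 and 44 UMIs in Atf3 high against 74, 33 and 5 in Atf3 low. This was 1164, 833 and 205 CPM in Atf3 high against 499, 275 and 68.1 in Atf3 low. Atf3 high replicates 1 and 2 were above every Atf3 low library, and Atf3 high replicate 3 was below Atf3 low replicates 1 and 2. Its log2 fold change was 1.33 (standard error 0.50, unadjusted p = 0.0112, adjusted p = 0.649, edgeR). *Col3a1*, the chain of type III collagen, had 315, 69 and 64 UMIs in Atf3 high against 130, 38 and 4 in Atf3 low, or 1601, 833 and 298 CPM in Atf3 high against 876, 317 and 54.5 in Atf3 low. Its highest library was 29.4 times its lowest, the widest ratio of the 32 genes that had a UMI in every library, and Atf3 low replicate 1 was above Atf3 high replicates 2 and 3. The log2 fold change was 1.09 (standard error 0.52, unadjusted p = 0.0416, adjusted p = 0.833, edgeR). Exons of *Col3a1* share 141 bases with *Gm47302* on the same strand, which is not listed in the count table.
*Col1a1*, the partner chain of *Col1a2* in type I collagen, had 214, 41 and 30 UMIs in Atf3 high against 79, 49 and 8 in Atf3 low (log2 fold change 0.68, standard error 0.50), with overlapping groups. *Col5a1* and *Col5a2* encode chains of the type V collagen that starts and limits fibril growth. *Col5a1* had 92, 18 and 6 UMIs in Atf3 high against 26, 23 and 4 in Atf3 low (log2 fold change 0.71, standard error 0.59), and the lowest of its 6 levels was in Atf3 high replicate 3, at 27.9 CPM. *Col5a2* had 62, 6 and 20 UMIs in Atf3 high against 23, 25 and 1 in Atf3 low (log2 fold change 0.32, standard error 0.60), with Atf3 low replicates 1 and 2 above Atf3 high replicates 2 and 3.
Added up, the 5 genes reached 4634, 2449.9 and 764 CPM in Atf3 high against 2237, 1402 and 299.6 in Atf3 low, a 15.5-fold range. The group means were 2616 ± 1940.4 CPM in Atf3 high against 1313 ± 972 in Atf3 low (SD, n = 3 libraries), so the difference between the groups was smaller than the spread inside Atf3 high.

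Promoter windows, 250 bases before to 50 bases after a transcription start (RefSeq, GRCm38.p6), were available for 31 of the 44 genes, 37 windows in all. They were searched on both strands for TGACGTCA, the letters the study names as the Atf3 consensus, for TGANTCA, the letters of an AP-1 site, and for CCAAT, a common promoter element that reads ATTGG on the other strand; none of the 3 overlaps another in its letters. TGACGTCA was found in 1 of the 37 windows (2.7%) and in 1.79% of all 32851 windows, TGANTCA in 1 (2.7%) and in 7.81%, and CCAAT in 13 (35.1%, 12 genes) and in 37.4%. The window of *Col1a2* is shown because it is the fibrillar collagen of smallest p (chr6:4505368-4505667, plus strand, 5′ to 3′, CCAAT or ATTGG in capitals). It holds CCAAT 109 bases before its start and, on the other strand, from the start base onward.
Col1a2: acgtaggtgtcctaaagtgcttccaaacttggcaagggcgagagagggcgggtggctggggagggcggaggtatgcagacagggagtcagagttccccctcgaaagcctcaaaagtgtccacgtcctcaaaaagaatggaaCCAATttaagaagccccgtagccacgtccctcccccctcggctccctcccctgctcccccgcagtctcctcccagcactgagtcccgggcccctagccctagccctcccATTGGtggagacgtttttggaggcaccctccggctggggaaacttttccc
It has neither TGACGTCA nor TGANTCA in these 300 bases.

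Basement membrane genes and the other collagens had the highest class median among the classes with more than 3 genes, 0.98, and 10 of 11 log2 fold changes were positive. The median ran from 0.34 without Atf3 high replicate 1 to 1.46 without Atf3 high replicate 3. *Nid1*, nidogen 1, which bridges the laminin and type IV collagen networks, was 1 of the 3 genes without overlap. It had 35, 15 and 19 UMIs in Atf3 high against 7, 9 and 2 in Atf3 low, or 178, 181 and 88.5 CPM in Atf3 high against 47.2, 75.1 and 27.2 in Atf3 low. The lowest Atf3 high level, in replicate 3, was above the highest Atf3 low level, in replicate 2. The log2 fold change was 1.50 (standard error 0.63, unadjusted p = 0.0216, adjusted p = 0.76, edgeR). *Lamc1*, the γ1 chain found in most laminins, had 28, 10 and 11 UMIs in Atf3 high against 2, 9 and 0 in Atf3 low, or 142, 121 and 51.2 CPM in Atf3 high against 13.5, 75.1 and 0 in Atf3 low. Atf3 low replicate 2 was the only Atf3 low library above an Atf3 high library, replicate 3. Its log2 fold change was 1.69 (standard error 0.80, unadjusted p = 0.0398, adjusted p = 0.824, edgeR).
Both laminin β chains, which pair with the γ chain, had smaller log2 fold changes. *Lamb1* had 15, 9 and 11 UMIs in Atf3 high against 9, 13 and 0 in Atf3 low (log2 fold change 0.34, standard error 0.75). *Lamb2* had 43, 44 and 76 UMIs in Atf3 high against 26, 62 and 31 in Atf3 low, or 218, 531 and 354 CPM in Atf3 high against 175, 517 and 422 in Atf3 low. Its 2 lowest levels were in the replicates 1 of both groups, and its log2 fold change was −0.03 (standard error 0.45).
The 3 chains of type VI collagen, which forms beaded filaments next to the basement membrane, had the next smallest p values of the class. *Col6a2* had 42, 22 and 16 UMIs in Atf3 high against 18, 10 and 2 in Atf3 low (log2 fold change 1.13, unadjusted p = 0.0619, edgeR). *Col6a1* had 56, 12 and 12 UMIs in Atf3 high against 13, 11 and 3 in Atf3 low (log2 fold change 1.09, unadjusted p = 0.0794, edgeR). For *Col6a1* and *Col6a2*, Atf3 low replicates 1 and 2 were both above Atf3 high replicate 3. *Col6a3* had 34, 1 and 13 UMIs in Atf3 high against 1, 10 and 1 in Atf3 low (log2 fold change 1.27, standard error 0.84), and its 3 lowest levels, 1 UMI each, were spread over both groups. *Col8a1*, a short-chain collagen of vessel walls, had 45, 14 and 2 UMIs in Atf3 high against 19, 4 and 2 in Atf3 low (log2 fold change 0.98, standard error 0.71), so that the highest and the lowest level of the gene were both in Atf3 high. *Col15a1*, a collagen of the basement membrane zone of muscle and capillaries, had 113, 19 and 26 UMIs in Atf3 high against 62, 7 and 3 in Atf3 low (log2 fold change 0.77, standard error 0.58).
*Col4a1* and *Col4a2* encode the chains of the common type IV collagen and are read in opposite directions from a shared region of chromosome 8. *Col4a1* had 187, 94 and 60 UMIs in Atf3 high against 98, 76 and 12 in Atf3 low, or 950.2, 1134 and 279 CPM in Atf3 high against 660.4, 634 and 163 in Atf3 low. *Col4a2* had 94, 48 and 45 UMIs in Atf3 high against 65, 57 and 17 in Atf3 low, or 478, 579 and 209.6 CPM in Atf3 high against 438, 476 and 232 in Atf3 low. In both genes Atf3 high replicate 2 was the highest library, and for both the groups overlapped, with log2 fold changes of 0.66 (standard error 0.45) and 0.11 (standard error 0.44). Leaving out that library gave 0.30 for *Col4a1* and −0.18 for *Col4a2*. Their first exons share 22 bases on opposite strands, and the strand setting of the counting is not given in the sources used here, so reads there cannot be told apart.
The RefSeq starts of the pair lie 21 bases apart, at 11312826 for *Col4a1* (minus strand) and 11312805 for *Col4a2* (plus strand), and their windows share 78 bases, each reading the other's complement. The windows chr8:11312777-11313076 (*Col4a1*, minus strand) and chr8:11312555-11312854 (*Col4a2*, plus strand) are printed to show this divergent arrangement, with CCAAT or ATTGG in capitals.
Col4a1: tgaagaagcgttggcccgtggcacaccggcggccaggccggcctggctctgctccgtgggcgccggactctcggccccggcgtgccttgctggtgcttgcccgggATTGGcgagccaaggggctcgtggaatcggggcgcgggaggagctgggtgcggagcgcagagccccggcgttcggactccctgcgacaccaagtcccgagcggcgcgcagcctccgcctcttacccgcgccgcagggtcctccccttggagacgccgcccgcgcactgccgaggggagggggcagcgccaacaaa
Col4a2: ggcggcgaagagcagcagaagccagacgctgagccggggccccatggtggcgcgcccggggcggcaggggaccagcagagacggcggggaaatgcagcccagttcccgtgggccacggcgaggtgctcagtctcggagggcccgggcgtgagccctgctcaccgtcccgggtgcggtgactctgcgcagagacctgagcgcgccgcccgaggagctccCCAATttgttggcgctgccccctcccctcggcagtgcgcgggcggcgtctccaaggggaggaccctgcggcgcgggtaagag
The window of *Col6a1* (chr10:76725995-76726294, minus strand) is shown because it alone among the 37 holds TGANTCA, in capitals 90 bases before the start.
Col6a1: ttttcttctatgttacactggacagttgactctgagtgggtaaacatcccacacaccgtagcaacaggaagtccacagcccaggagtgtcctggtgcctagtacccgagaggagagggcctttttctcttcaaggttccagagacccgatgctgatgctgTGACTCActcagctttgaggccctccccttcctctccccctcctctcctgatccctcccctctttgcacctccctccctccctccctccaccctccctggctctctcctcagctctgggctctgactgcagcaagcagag
As a class these 11 genes reached 3516, 3476 and 1355 CPM in Atf3 high against 2156, 2236 and 994 in Atf3 low, with group means of 2782 ± 1236 CPM in Atf3 high against 1795 ± 695 in Atf3 low (SD, n = 3 libraries).

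**Figure D2:**
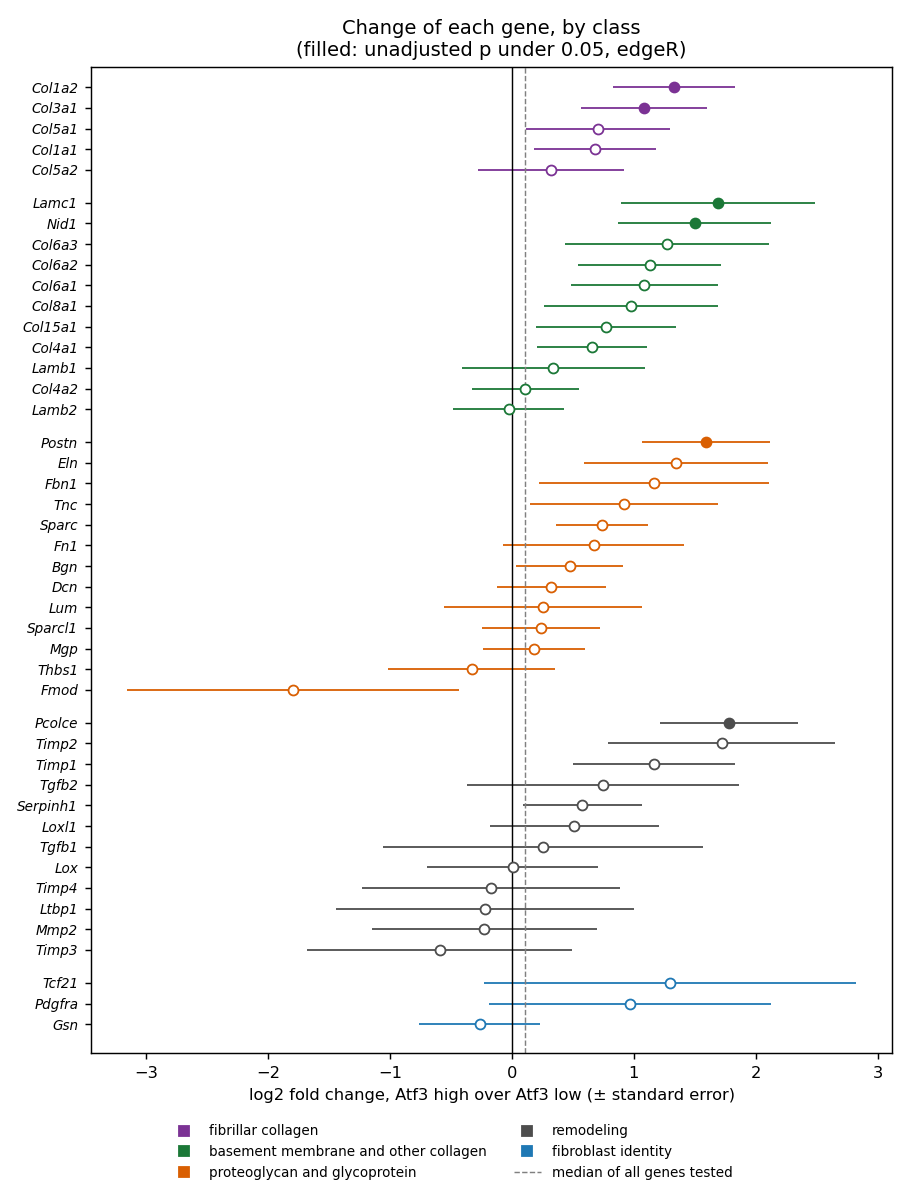
Log2 fold change of each of the 44 genes, Atf3 high over Atf3 low, with its standard error from edgeR, by class; filled points have an unadjusted p under 0.05 and the dashed line is the median of all genes tested, 0.11. Points lie to the right of 0 for 36 genes, and the filled ones are *Col1a2*, *Col3a1*, *Lamc1*, *Nid1*, *Postn* and *Pcolce*.

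Among the 13 proteoglycans and glycoproteins, 11 had a positive log2 fold change, with a median of 0.47. This median was 0.074 without Atf3 high replicate 1, and leaving out Atf3 low replicate 3 gave 0.22. *Postn*, periostin, a matricellular protein made by activated fibroblasts, had 100, 25 and 28 UMIs in Atf3 high against 14, 17 and 5 in Atf3 low, or 508, 302 and 130.4 CPM in Atf3 high against 94.3, 142 and 68.1 in Atf3 low. Atf3 high replicates 1 and 2 were above every Atf3 low library, and Atf3 high replicate 3 was below Atf3 low replicate 2 alone. The log2 fold change was 1.59 (standard error 0.53, unadjusted p = 0.00426, adjusted p = 0.649, edgeR), the second smallest p of the 44 genes. *Sparc*, a collagen-binding protein that aids procollagen assembly and the gene with most UMIs here, had 591, 204 and 190 UMIs in Atf3 high against 250, 141 and 68 in Atf3 low, or 3003, 2462 and 885 CPM in Atf3 high against 1685, 1176 and 926 in Atf3 low. Its lowest level was in Atf3 high replicate 3, and its log2 fold change was 0.74 (standard error 0.38, unadjusted p = 0.0578, edgeR).
*Sparcl1*, the related SPARC-like protein, had the narrowest range of the genes with a UMI in every library, 1.62-fold, at 229, 229 and 172 CPM in Atf3 high against 209, 142 and 177 in Atf3 low. *Eln*, elastin, had 9, 13 and 24 UMIs in Atf3 high against 7, 1 and 5 in Atf3 low and a log2 fold change of 1.35 (standard error 0.75), with Atf3 high replicate 1 below Atf3 low replicates 1 and 3. *Fn1*, fibronectin, a ligand of integrins, had 51, 5 and 4 UMIs in Atf3 high against 22, 6 and 0 in Atf3 low (log2 fold change 0.67, standard error 0.74). *Tnc*, tenascin C, a glycoprotein of injured tissue, had 46, 3 and 3 UMIs in Atf3 high against 12, 6 and 1 in Atf3 low (log2 fold change 0.92, standard error 0.77). For both, the highest level was in Atf3 high replicate 1 and the next in Atf3 low replicate 1. *Fbn1*, fibrillin 1 of the microfibrils, had 13, 7 and 7 UMIs in Atf3 high against 1, 8 and 0 in Atf3 low (log2 fold change 1.17, standard error 0.94).
The small leucine-rich proteoglycans, which bind collagen fibrils, had overlapping groups throughout. *Dcn*, decorin, had 131, 23 and 58 UMIs in Atf3 high against 64, 41 and 14 in Atf3 low (log2 fold change 0.32, standard error 0.45). *Bgn*, biglycan, had 116, 32 and 54 UMIs in Atf3 high against 32, 46 and 21 in Atf3 low (log2 fold change 0.47, standard error 0.44). *Lum*, lumican, had 21, 3 and 8 UMIs in Atf3 high against 18, 1 and 1 in Atf3 low (log2 fold change 0.25, standard error 0.81), and its highest level was in Atf3 low replicate 1. *Fmod*, fibromodulin, had the lowest log2 fold change of the 44 genes, −1.79 (standard error 1.36), on 4, 0 and 0 UMIs in Atf3 high against 0, 6 and 3 in Atf3 low, and is at 0 in 3 libraries. *Mgp*, an inhibitor of calcification, had 111, 21 and 133 UMIs in Atf3 high against 58, 64 and 26 in Atf3 low (log2 fold change 0.18, standard error 0.42). *Thbs1*, thrombospondin 1, an activator of latent transforming growth factor β, had 25, 4 and 6 UMIs in Atf3 high against 22, 6 and 4 in Atf3 low (log2 fold change −0.33, standard error 0.69). The class summed to 6418, 4333 and 2571 CPM in Atf3 high against 3578, 3003 and 2193 in Atf3 low, with means of 4440.5 ± 1925 CPM in Atf3 high against 2925 ± 696 in Atf3 low (SD, n = 3 libraries).

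Of the 12 remodeling genes, 8 had a positive log2 fold change, with a median of 0.38. *Pcolce*, which enhances the cutting of the C-terminal propeptide from fibrillar procollagens, had the smallest p of the 44 genes. It lies on the minus strand of chromosome 5 (GRCm38, 137605103 to 137613784) and had 66, 22 and 26 UMIs in Atf3 high against 9, 12 and 3 in Atf3 low, or 335, 266 and 121 CPM in Atf3 high against 60.6, 100.1 and 40.9 in Atf3 low. Every Atf3 high library was above every Atf3 low library, the closest pair being Atf3 high replicate 3 and Atf3 low replicate 2. Means were 241 ± 109 CPM in Atf3 high against 67.2 ± 30.2 in Atf3 low (SD, n = 3 libraries), and the log2 fold change was 1.78 (standard error 0.56, unadjusted p = 0.00284, adjusted p = 0.545, edgeR). Its exons share 112 bases with *Gm36266* on the other strand, which had 1 UMI. They also share 112 bases with *Fbxo24* on the same strand, which is not listed in the count table.
*Serpinh1*, the collagen chaperone HSP47, had 113, 46 and 29 UMIs in Atf3 high against 65, 32 and 8 in Atf3 low (log2 fold change 0.58, standard error 0.49). The lysyl oxidases that cross-link collagen and elastin had at most 19 UMIs in a library. *Lox* had 14, 5 and 11 UMIs in Atf3 high against 8, 6 and 6 in Atf3 low (log2 fold change 0.01, standard error 0.70), and its highest level was in Atf3 low replicate 3. *Loxl1* had 19, 11 and 8 UMIs in Atf3 high against 8, 7 and 5 in Atf3 low (log2 fold change 0.51, standard error 0.70).
Of the 4 inhibitors of metalloproteinases, 2 had positive and 2 negative log2 fold changes. *Timp2* had 13, 4 and 13 UMIs in Atf3 high against 3, 2 and 1 in Atf3 low, or 66.1, 48.3 and 60.6 CPM in Atf3 high against 20.2, 16.7 and 13.6 in Atf3 low. The groups did not overlap, but with 6 UMIs in all of Atf3 low its log2 fold change was 1.72 (standard error 0.93, unadjusted p = 0.0715, adjusted p = 0.923, edgeR). *Timp1* had 36, 32 and 3 UMIs in Atf3 high against 17, 8 and 4 in Atf3 low, or 183, 386 and 14.0 CPM in Atf3 high against 115, 66.7 and 54.5 in Atf3 low. Its highest level was in Atf3 high replicate 2 and its lowest in Atf3 high replicate 3, a 27.6-fold ratio inside a group, and its log2 fold change was 1.17 (standard error 0.66). It was 0.26 without Atf3 high replicate 2 (unadjusted p = 0.734, edgeR) and 1.76 without Atf3 high replicate 3 (unadjusted p = 0.00497, edgeR). *Timp3* had 4, 2 and 4 UMIs in Atf3 high against 8, 0 and 3 in Atf3 low (log2 fold change −0.59, standard error 1.09). *Timp4* had 4, 0 and 11 UMIs in Atf3 high against 2, 6 and 2 in Atf3 low (log2 fold change −0.17, standard error 1.06). *Timp4* shares 90 exonic bases with *Syn2* on the other strand, which had 13 UMIs. *Mmp2*, the gelatinase, had 10, 0 and 10 UMIs in Atf3 high against 6, 8 and 1 in Atf3 low (log2 fold change −0.22, standard error 0.92).
The growth factor genes and their binding protein had few UMIs. *Tgfb1* had 4, 2 and 2 UMIs in Atf3 high against 1, 4 and 0 in Atf3 low (log2 fold change 0.25, standard error 1.31). *Tgfb2* had 10, 4 and 1 UMIs in Atf3 high against 1, 2 and 3 in Atf3 low (log2 fold change 0.75, standard error 1.11). *Ltbp1*, which binds latent transforming growth factor β to the matrix, had 5, 2 and 1 UMIs in Atf3 high against 5, 0 and 2 in Atf3 low (log2 fold change −0.22, standard error 1.22). *Ltbp1* has the only window among the 37 with the TGACGTCA letters, 73 bases before the start (chr17:75005279-75005578, plus strand), and is printed for that reason with TGACGTCA, CCAAT and ATTGG in capitals.
Ltbp1: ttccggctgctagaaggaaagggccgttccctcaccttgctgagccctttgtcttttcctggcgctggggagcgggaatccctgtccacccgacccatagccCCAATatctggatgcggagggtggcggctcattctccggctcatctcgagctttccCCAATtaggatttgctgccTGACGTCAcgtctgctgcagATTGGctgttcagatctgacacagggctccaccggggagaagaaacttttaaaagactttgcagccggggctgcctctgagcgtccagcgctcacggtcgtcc
A second RefSeq start of the gene has a window with none of the searched letters. The 12 genes summed to 1514, 1569 and 554 CPM in Atf3 high against 896, 726 and 518 in Atf3 low, with means of 1212 ± 571 CPM in Atf3 high against 713 ± 189.7 in Atf3 low (SD, n = 3 libraries).

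Of the 3 fibroblast identity genes, 2 were highest in Atf3 high replicate 1, and *Gsn* was highest in Atf3 low replicate 2. *Gsn*, gelsolin, an actin-severing protein abundant in cardiac fibroblasts but made by other cells too, had 81, 32 and 193 UMIs in Atf3 high against 12, 122 and 72 in Atf3 low, or 412, 386 and 899 CPM in Atf3 high against 80.9, 1018 and 981 in Atf3 low. Atf3 low replicate 1 was the lowest library and Atf3 low replicates 2 and 3 were the highest, a 12.6-fold ratio inside a group, and the log2 fold change was −0.26 (standard error 0.50). *Pdgfra*, the receptor used to mark fibroblasts, had 11, 1 and 4 UMIs in Atf3 high against 3, 0 and 2 in Atf3 low (log2 fold change 0.97, standard error 1.16), and *Tcf21*, a transcription factor of the fibroblast lineage, had 5, 0 and 3 UMIs in Atf3 high against 2, 0 and 0 in Atf3 low (log2 fold change 1.30, standard error 1.52). Both of these were highest in Atf3 high replicate 1, at 55.9 and 25.4 CPM. *Tcf21* was at 0 in 3 libraries, a count that allows up to 25.0 to 40.9 CPM there.

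Libraries of the same group differed widely in how much matrix RNA they held. The 44 genes together took 1.76% of the UMIs in Atf3 high replicate 1 (exact 95% binomial interval 1.7 to 1.83), 1.25% in replicate 2 (1.17 to 1.33) and 0.63% in replicate 3 (0.596 to 0.664). In Atf3 low they took 0.777% (0.736 to 0.82), 0.801% (0.752 to 0.852) and 0.449% (0.405 to 0.497). The share of Atf3 high replicate 3 was thus below those of Atf3 low replicates 1 and 2, with intervals that do not overlap. Summed levels were 16575, 12226 and 6176 CPM in Atf3 high against 8983, 8384 and 5012 in Atf3 low, and means were 11659 ± 5222 CPM in Atf3 high against 7459.5 ± 2141 in Atf3 low (SD, n = 3 libraries).
Atf3 high replicate 1 or 2 was the highest library for 33 of the 44 genes. For the fibrillar collagen, basement membrane, proteoglycan and remodeling sums alike, both of these libraries were above all others and Atf3 high replicate 3 was below Atf3 low replicates 1 and 2. The identity sum, of which *Gsn* made up the larger part in every library, ran 493, 398 and 932 CPM in Atf3 high against 115, 1018 and 1008 in Atf3 low. Over the 32 genes with a UMI in every library the highest level was a median of 7.83 times the lowest, and the common biological coefficient of variation over all genes was 53.6%.

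**Figure D3:**
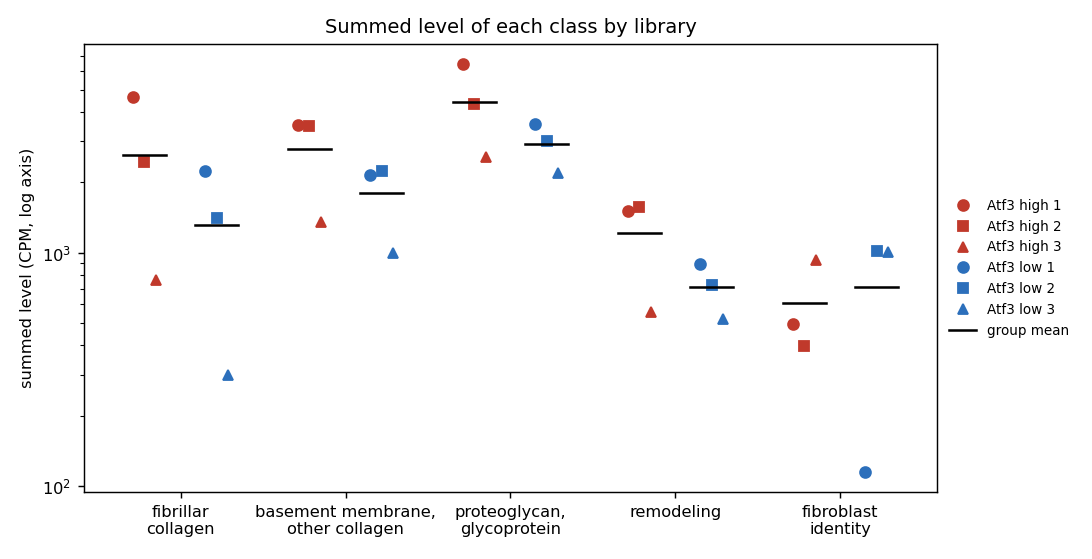
Summed level of each class in each library, in CPM on a log axis, with Atf3 high in red, Atf3 low in blue, one symbol shape per replicate number and a bar at each group mean. In the first 4 classes Atf3 high replicate 3 sits below Atf3 low replicates 1 and 2, and the fibrillar collagens run from 300 CPM in Atf3 low replicate 3 to 4634 CPM in Atf3 high replicate 1.

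The counts of genes past the threshold depended on single libraries. Without Atf3 high replicate 1, the library with the highest matrix levels, 2 genes had an unadjusted p under 0.05 (*Eln* and *Pcolce*), the median of the 41 genes still tested was 0.17, and 26 were positive and 15 negative. Without Atf3 low replicate 3, the library with the lowest, 2 genes passed (*Postn* and *Pcolce*) and the median was 0.32. Leaving out Atf3 high replicate 3 instead gave 15 of the 43 genes still tested and a median of 1.10. Without Atf3 high replicate 2, the library that goes against its label of sex, 3 genes passed (*Col1a2*, *Postn* and *Pcolce*), the median was 0.56, and 37 genes were positive and 7 negative. Without Atf3 low replicate 1 or 2, 8 of 43 and 7 of 42 genes passed. All genes that passed were higher in Atf3 high. Among all genes tested, 146 of 6598, 204 of 7326 and 234 of 6588 were higher at this threshold without Atf3 high replicates 1, 2 and 3. For Atf3 low replicates 1, 2 and 3 left out, the counts were 315 of 7026, 248 of 7081 and 202 of 7412. No gene of the 44 was called after adjustment in any of these 6 fits by edgeR.
*Pcolce* had an unadjusted p under 0.05 in all 6 fits that left out a library, with log2 fold changes from 1.45 to 2.12. *Postn* lost it without Atf3 high replicate 1 (1.02, unadjusted p = 0.111, edgeR), and *Col1a2* without Atf3 high replicate 1 (0.83, unadjusted p = 0.165, edgeR) and without Atf3 low replicate 3 (0.87, unadjusted p = 0.134, edgeR). *Nid1* and *Lamc1* had it in the fit without Atf3 high replicate 3 (1.77 and 2.03) and in that without Atf3 low replicate 2 (1.84 and 3.42). *Col3a1* had it without Atf3 high replicate 3 (1.50) and also without Atf3 low replicate 1 (2.17), and its value was 0.40 without Atf3 high replicate 1 (unadjusted p = 0.507, edgeR). Without Atf3 high replicate 2, *Nid1* had 1.35 (unadjusted p = 0.0658, edgeR), *Lamc1* 1.59 (unadjusted p = 0.0905, edgeR) and *Col3a1* 1.13 (unadjusted p = 0.0625, edgeR).
The direction itself turned for some genes: without Atf3 high replicate 1, *Col1a1* had −0.21, *Col5a1* −0.36, *Fn1* −0.96 and *Tnc* −1.11, and the fibrillar collagen median was −0.21.

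**Figure D4:**
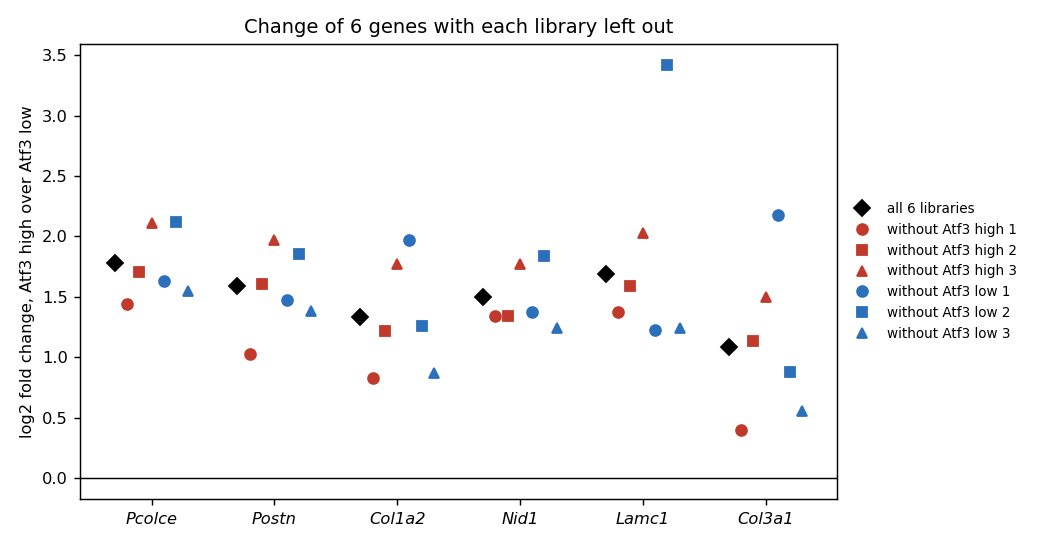
Log2 fold change of the 6 genes with an unadjusted p under 0.05, fitted on all 6 libraries (black diamonds) and with each library left out in turn (red, an Atf3 high library; blue, an Atf3 low library). All values are above 0; those of *Pcolce* lie between 1.45 and 2.12, while those of *Col3a1* run from 0.40 without Atf3 high replicate 1 to 2.17 without Atf3 low replicate 1.

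Other genes of matrix biology were listed by role and read from the same fit. Of 28 other structural genes of the matrix tested, 21 had a positive log2 fold change with a median of 0.64, and 1, *Mfap5*, a microfibril protein, had an unadjusted p under 0.05. It had 102, 17 and 74 UMIs in Atf3 high against 7, 23 and 16 in Atf3 low (log2 fold change 1.29, standard error 0.51, unadjusted p = 0.0152, adjusted p = 0.695, edgeR). Atf3 low replicate 3 was above Atf3 high replicate 2, and without Atf3 high replicate 2 the value was 1.54 (unadjusted p = 0.00718, edgeR). Without Atf3 high replicate 1 it was 0.91 and without Atf3 low replicate 1 0.78, neither with an unadjusted p under 0.05 in edgeR. *Ogn*, osteoglycin, had the smallest p of the negative ones (log2 fold change −0.66, standard error 0.72).
Among 22 genes of collagen processing and turnover, 16 were positive with a median of 0.34. *Crtap*, a part of the prolyl 3-hydroxylation complex, was the 1 gene of the list at an unadjusted p under 0.05, on 2, 8 and 0 UMIs in Atf3 high against 0, 0 and 0 in Atf3 low. It reached the minimum of 10 UMIs through Atf3 high alone, so this p is no support for a difference, and without Atf3 high replicate 2 it was too low to be tested and 0 genes of the list passed in edgeR. *Mmp15*, a membrane-type metalloproteinase, had −1.46 (standard error 0.98). Of 23 genes of transforming growth factor β signaling, 17 were positive with a median of 0.24. *Ccn2*, connective tissue growth factor, a target of that signal, had 52, 31 and 29 UMIs in Atf3 high against 9, 22 and 6 in Atf3 low (log2 fold change 1.20, standard error 0.54, unadjusted p = 0.0306, adjusted p = 0.81, edgeR), with Atf3 low replicate 2 above Atf3 high replicate 3. Without Atf3 high replicate 2 it had 0.85 (unadjusted p = 0.16, edgeR). *Smad4*, the common partner of the receptor-activated Smads, had −1.33 (standard error 1.00) over all 6 libraries. Of 11 receptors by which cells hold to the matrix, 5 were positive and 6 negative, with a median of −0.16 that became 0.05 under library size scaling and 0.09 without Atf3 high replicate 2. *Itga6*, a laminin receptor chain, had 7, 2 and 2 UMIs in Atf3 high against 14, 7 and 4 in Atf3 low (−1.59, unadjusted p = 0.0704, edgeR), and *Ddr1*, a collagen receptor, had 1.71 (standard error 1.30). In these 4 lists 0 genes were called after adjustment, and the 3 genes at an unadjusted p under 0.05, *Crtap* included, make up 1 of 28, 1 of 22, 1 of 23 and 0 of 11, beside 3.55% of all genes tested in the same direction.

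Marker sums of other cells were set beside those of the matrix genes. The 11 cardiomyocyte markers were abundant in every library, as the labels have it, and summed to 23709, 25477 and 45401 CPM in Atf3 high against 45553, 51222 and 61042 in Atf3 low. Their order over the libraries was the reverse of that of the fibrillar collagens at both ends, with the lowest sum in Atf3 high replicate 1 and the highest in Atf3 low replicate 3. Of these 11 genes 10 had a negative log2 fold change, 4 of them at an unadjusted p under 0.05, where 2.24% of all genes tested were lower, and 3 of these 4 were lower throughout Atf3 high with no overlap, against 3.89% of all genes. Among the 11, *Tnnc1* and *Ttn* were at −0.06 each. After adjustment 2 were called by edgeR: *Myh6*, the α myosin heavy chain, was lower (log2 fold change −1.81, adjusted p = 0.00512), and *Nppa*, atrial natriuretic peptide, was higher (3.22, adjusted p = 0.0345). *Nppa* had 158, 760 and 112 CPM in Atf3 high against 13.5, 33.4 and 68.1 in Atf3 low. Without Atf3 high replicate 2, edgeR called 1 of all 7326 genes tested, so *Myh6* and *Nppa* did not both pass there. The 20 fibroblast markers, 8 of them among the 44 genes, summed to 6433, 3621 and 2729.6 CPM in Atf3 high against 3046, 3012 and 2057 in Atf3 low. The 12 fibroblast markers that are not among the 44 summed to 1316, 748 and 848 CPM in Atf3 high against 472, 642 and 613 in Atf3 low, every Atf3 high library above every Atf3 low one. Of this, *Mfap5* had 518, 205 and 345 CPM in Atf3 high against 47.2, 192 and 218 in Atf3 low. *Vim* had 406, 217 and 200 CPM in Atf3 high against 168, 117 and 177 in Atf3 low. With *Mfap5* and *Vim* taken out of the sum, Atf3 low replicate 2 lay above Atf3 high replicates 2 and 3, so the groups overlapped. Of 17 fibroblast markers tested, 14 were positive and 3 negative, *Thy1* (−0.52) and *Cd34* (−0.17) among the latter. For 1 of the 17 (5.88%) every Atf3 high library lay above every Atf3 low library, beside 7.07% of all genes. The 14 markers of activated fibroblasts, 4 of them among the 44, summed to 1875, 1147 and 601 CPM in Atf3 high against 768, 918 and 259 in Atf3 low, and the 10 that are not among the 44 to 691, 362 and 424 CPM in Atf3 high against 330.2, 609 and 123 in Atf3 low, with Atf3 low replicate 2 above Atf3 high replicates 2 and 3. Among the activated fibroblast markers *Cthrc1* had a negative value at an unadjusted p under 0.05, on 2, 0 and 0 UMIs in Atf3 high against 3, 9 and 0 in Atf3 low.
*Pdgfra* had no UMI in 1 library and *Tcf21* in 3.
The 15 endothelial markers overlapped between groups at 2058, 1714 and 1826 CPM in Atf3 high against 2082, 1702 and 1144 in Atf3 low. *Pecam1* and *Cdh5* had UMIs in every library, and *Cldn5* in 1. The 9 mural cell markers summed to 833, 374 and 834 CPM in Atf3 high against 755, 592 and 531 in Atf3 low. Of 8 tested, 6 were positive and 2 negative. For 1 of the 8, *Pdgfrb*, every Atf3 high library lay above every Atf3 low library, beside 7.07% of all genes. It had 91.5, 60.3 and 83.8 CPM in Atf3 high against 47.2, 25.0 and 27.2 in Atf3 low. *Abcc9* was lower in every Atf3 high library, as were 3.89% of all genes, at 61.0, 84.5 and 121 CPM against 142, 192 and 354 in Atf3 low. Its log2 fold change was −1.31 (unadjusted p = 0.0190, adjusted p = 0.744, edgeR). The 12 macrophage markers summed to 376, 374 and 233 CPM in Atf3 high against 249, 409 and 313 in Atf3 low. The 2 epicardial markers had at most 4 UMIs in a library (*Wt1* at 0 in 3), the 3 Schwann cell markers at most 4, and the 2 erythrocyte markers at most 19. The part of these cells in the values of the matrix genes was not tested, since the libraries hold no count of cells.

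**Figure D5:**
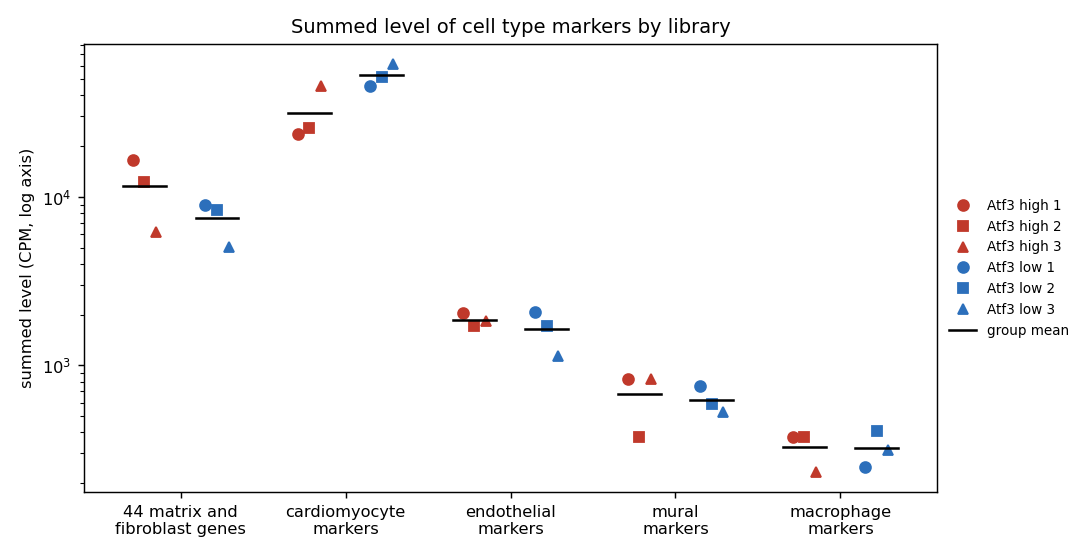
Summed level of the 44 matrix and fibroblast genes and of the markers of 4 cell types in each library, in CPM on a log axis, Atf3 high in red and Atf3 low in blue with a bar at each group mean. Cardiomyocyte markers are lowest in Atf3 high replicates 1 and 2, where the 44 genes are highest, while endothelial, mural and macrophage markers overlap between the groups.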

How the data were processed

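The 6 libraries were assigned to Atf3 high or Atf3 low and to replicate numbers by their labels. Reads had been aligned by the authors with HISAT2 (version 2.1.0) against GRCm38, and the submitters' processing notes also name UMI-tools (version 1.0.0) and featureCounts (version 1.6.4). The deposited table holds raw UMI counts per gene, without normalization. The annotation release, strand setting and treatment of reads with several matches are not given in the sources used here, and reads shared by overlapping genes or copies can shift such counts.
The 7665 genes with at least 10 UMIs were scaled by TMM and tested by glmQLFit and glmQLFTest of edgeR (version 4.0.16, R version 4.3.3), with Benjamini-Hochberg adjustment at 0.05. CPM use the TMM-scaled library size of these genes. Standard errors were derived from the F statistic. Transcripts of other genes with at least 95% identity over 200 bases were sought with BLAST+ (version 2.17.0). The genes found for *Eln*, *Fbn1*, *Nid1*, *Pdgfra* and *Timp3* are not listed in the count table. For *Eln*, *Fbn1*, *Pdgfra* and *Timp3* the gene found overlaps their exons on the opposite strand, so it is not a copy elsewhere. Gene positions are from the GENCODE annotation of GRCm38. DESeq2 (version 1.42.0), limma-trend (limma version 3.58.1, prior count 2), other scalings, other filters, leaving out each library, thinning to 81117 UMIs and a replicate block were tried. The scripts were tested on simulated data. The genes, their classes and the companion and marker lists were chosen with earlier results of these data known. Named beyond the 44 genes were those of each companion list at an unadjusted p under 0.05 and the one of smallest p in each direction. *Cthrc1*, *Myh6*, *Nppa*, *Tnnc1*, *Ttn*, *Vim*, *Thy1*, *Cd34*, *Pdgfrb*, *Abcc9* and the markers named by their zeros were named after their values were seen. Binomial intervals and limits for counts of 0 cover counting error only. Other data of the study were not analysed here.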

Additional observations from a re-analysis of the deposited data

How the results depend on the processing

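Over the genes named, 641 of 695 values under an alternative kept their direction and their side of the adjusted threshold, 52 turned in direction and 2 passed the threshold. The 0 genes called became 2 with the replicate block in edgeR, *Col1a2* (adjusted p = 0.0348) and *Col3a1* (adjusted p = 0.0329), with 10 genes at an unadjusted p under 0.05. Among all 7665 genes the block called 24, and 211 were higher at an unadjusted p under 0.05. Same-numbered libraries had correlations of deviations of 0.18, 0.0476 and 0.174 over 3833 genes, not all over 0.1. Over these genes each correlated best with its own number, which is a hint from the data and not from the design. Over the 44 genes the correlations were 0.465, −0.143 and 0.463, so number 2 did not correlate best with its own there. Whether same-numbered libraries shared a heart is not given in the sources used here, and these correlations cannot settle it. For number 2 the sex-linked reads of the Atf3 high and the Atf3 low library differed. The count of 6 genes at an unadjusted p under 0.05 was 12 with library size scaling and 10 after thinning, and ran from 2 to 15 with each library left out. Among all 7665 genes, library size scaling gave 410 higher at this threshold and thinning 286. The median of those of the 44 genes still tested (25 with filterByExpr) stayed between 0.53 and 0.91 over the other settings and ran between 0.17 and 1.10 with a library left out. The remodeling median was 0.57 with library size scaling, 1.20 with filterByExpr (3 genes left) and 0.62 after thinning, and 0.20 to 0.74 with a library left out. The identity median was −0.30 with filterByExpr, where *Gsn* alone was left, and −0.0039 to 1.25 with a library left out.
Of single genes, library size scaling turned *Lamb2* (0.15), *Timp4* (0.0062) and *Ltbp1* (0.014), no filter turned *Lamb2* (0.032), the block turned *Lamb2* (0.028) and *Gsn* (0.13), and limma-trend turned *Lamb2* (0.030), *Lox* (−0.0040), *Ltbp1* (0.0069) and *Gsn* (0.22). *Lox* also turned with DESeq2 size factors (−0.026), DESeq2 (−0.030) and thinning (−0.054). Thinning turned *Sparcl1* (−0.11), *Mgp* (−0.24), *Thbs1* (0.042) and *Mmp2* (0.52). With a library left out, values crossed 0 for *Col1a1* (−0.21 to 1.14), *Col5a1* (−0.36 to 1.25), *Col5a2* (−0.63 to 0.78), *Col4a2* (−0.18 to 0.44), *Col15a1* (−0.067 to 2.54), *Lamb1* (−0.16 to 1.04), *Lamb2* (−0.43 to 0.26), *Fn1* (−0.96 to 1.93), *Dcn* (−0.25 to 0.55), *Lum* (−0.45 to 2.41), *Mgp* (−0.044 to 0.46), *Thbs1* (−1.23 to 0.36), *Tnc* (−1.11 to 1.45), *Timp3* (−1.23 to 0.16), *Timp4* (−1.22 to 0.42), *Mmp2* (−0.60 to 0.25), *Lox* (−0.17 to 0.20), *Tgfb1* (−0.19 to 0.58), *Ltbp1* (−0.87 to 0.49), *Gsn* (−0.85 to 0.093) and *Ogn* (−1.27 to 0.63).
The companion lists were put through the same settings after their values had been seen. Their 3 genes at an unadjusted p under 0.05 became 8 with library size scaling, 1 with DESeq2, 5 with limma-trend and 5 with the block, and 0 to 8 with a library left out. Library size scaling gave medians of 0.85 for other structural genes, 0.55 for turnover and 0.46 for transforming growth factor β signaling, and the block gave 0.52 for the last. With a library left out the turnover median was 0.17 to 0.70 and the signaling median 0.10 to 0.38. The cause of these changes was not tested. Depth limits the 12 genes at 0 UMIs in some library, where a level of up to 40.9 CPM would go unseen.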
